A study of Mus musculus with 2 samples.

Results

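The nuclear genes of oxidative phosphorylation are those that encode the respiratory chain and ATP synthase outside the mitochondrial genome. They were taken by name from the raw tables, as every row that began with Nduf followed by a, b, c, s or v, with Cox4 to Cox8, with Uqcr or with Atp5, and Sdha to Sdhd. Rows named as pseudogenes by the ending -ps were left out, which removed 7 rows. This gave 93 members of the 29809 rows in both tables together, of which 91 stood in the Irx3/5dHet table and 93 in the WT table. Cox8b and Cox8c had no row in the Irx3/5dHet table. By complex, the members were 7 core subunits, 29 other subunits and 8 assembly factors of complex I, 4 subunits of complex II, 8 of complex III, 20 of complex IV and, by name, 17 of complex V. Complex V took every Atp5 name, Atp5s and Atp5sl included, without a check that each is a structural subunit.

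The cells came from the dissected arcuate nucleus and median eminence, the hypothalamic region next to the third ventricle that senses circulating signals of energy stores. The Irx3/5dHet library pooled 5 CD-1 mice of genotype Irx3/5+/-, heterozygous for the Iroquois transcription factor genes Irx3 and Irx5, and the WT library pooled 7 wild-type CD-1 mice. All mice were 7 to 8 weeks old, and live cells were sorted before Drop-seq, a droplet method in which bead barcodes mark the cell and the 3′ ends of transcripts are counted as unique molecular identifiers (UMIs). Each genotype was 1 pooled library with no map from cells to mice, so no difference below has a replicate check, no test was run, and every interval is a 95% interval for counting error only.

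Oxidative phosphorylation takes place in the inner membrane of mitochondria. Complexes I and II take electrons from NADH and succinate, complexes III and IV pass them on to oxygen while protons are pumped, and complex V (ATP synthase) makes ATP as the protons flow back. Most subunits are nuclear products that are imported and joined to a small set made from mitochondrial DNA, and neurons depend on the pathway to power ion pumps and synaptic transmission.

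Promoters of many of these genes are known to bind NRF1, YY1 and GABP, factors that tie nuclear and mitochondrial gene activity together. RefSeq gave a promoter of 300 bases, 250 before to 50 after the start of the gene, for 74 of the 93 members. The NRF1 motif, GCGC followed by any base and TGCGC, was found on either strand in 18 of them (24.3%), against 8.43% of the 13072 promoters of coding genes. The YY1 motif AAGATGGC was found in 9 (12.2%, against 3.90% of coding promoters) and the GABP core CCGGAAG in 17 (23.0%, against 14.7% of coding promoters). At least 1 of these 3 motifs stood in 38 of the 74 promoters (51.4%), against 24.3% of coding promoters. A match is a stretch of letters and not a measured binding site. The promoters of Cox6a1, Ndufa6 and Atp5g3 are shown. Cox6a1 had the lowest ratio between the libraries in neurons among members with at least 50 UMIs there. Ndufa6 was the most abundant complex I subunit. Atp5g3 had the highest neuron ratio of the members with at least 500 UMIs and no sequence-matched pseudogene copy. The choice was made among members named by the naming rule given with the processing below that have an NRF1 match, taking those with the most UMIs. Members named for other reasons, such as Atp5h, were not considered. These 3 promoters therefore hold an NRF1 match by choice. They lie on the minus strand of GRCm38.p6 at chr5:115348909-115349208 (Cox6a1), chr15:82354242-82354541 (Ndufa6) and chr2:73911277-73911576 (Atp5g3), and are written 5′ to 3′ with the matched motifs in capitals.
Cox6a1: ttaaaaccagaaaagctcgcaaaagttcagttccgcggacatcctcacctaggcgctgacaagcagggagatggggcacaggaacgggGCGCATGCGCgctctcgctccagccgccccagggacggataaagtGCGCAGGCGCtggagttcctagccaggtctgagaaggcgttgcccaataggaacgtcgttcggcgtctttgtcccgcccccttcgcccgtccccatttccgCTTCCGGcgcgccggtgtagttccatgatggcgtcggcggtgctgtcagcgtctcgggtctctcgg
Ndufa6: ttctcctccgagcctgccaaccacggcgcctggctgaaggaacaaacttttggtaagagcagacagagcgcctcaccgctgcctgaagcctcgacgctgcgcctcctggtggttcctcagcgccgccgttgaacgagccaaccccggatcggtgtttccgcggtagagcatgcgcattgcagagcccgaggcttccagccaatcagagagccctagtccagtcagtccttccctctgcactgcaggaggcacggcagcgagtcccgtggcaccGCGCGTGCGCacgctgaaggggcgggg
Atp5g3: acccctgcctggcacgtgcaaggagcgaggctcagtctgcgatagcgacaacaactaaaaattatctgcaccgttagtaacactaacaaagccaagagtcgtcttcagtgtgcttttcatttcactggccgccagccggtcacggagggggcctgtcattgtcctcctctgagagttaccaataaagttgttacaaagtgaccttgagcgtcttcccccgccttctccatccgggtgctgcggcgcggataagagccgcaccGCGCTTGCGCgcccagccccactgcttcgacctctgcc
Counting both strands, the Cox6a1 promoter held 2 NRF1 matches and 1 GABP match, and the others held 1 NRF1 match each.

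Subunit c of ATP synthase, the proton-carrying ring protein, is made by Atp5g1, Atp5g2 and Atp5g3, whose mature proteins are known to be the same. The last 75 coding bases are shown because Atp5g1 differed most between the libraries while its processed pseudogene Gm10039 nearly shares its sequence. All are on the minus strand, with genes at chr11:96068852-96075670 (Atp5g1), chr11:100361716-100362126 (Gm10039), chr2:73908447-73911326 (Atp5g3) and chr15:102662864-102672352 (Atp5g2) in GRCm38. Sequences are from GENCODE M21, written 5′ to 3′, and capitals mark bases that differ from Atp5g1.
Atp5g1: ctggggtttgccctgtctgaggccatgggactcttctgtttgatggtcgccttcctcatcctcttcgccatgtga
Gm10039: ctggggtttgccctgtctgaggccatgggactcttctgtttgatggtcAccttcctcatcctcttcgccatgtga
Atp5g3: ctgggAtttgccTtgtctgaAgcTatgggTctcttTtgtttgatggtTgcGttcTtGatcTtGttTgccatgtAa
Atp5g2: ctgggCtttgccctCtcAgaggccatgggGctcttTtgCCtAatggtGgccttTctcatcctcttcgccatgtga
Gm10039 matched 410 of the 411 coding bases of Atp5g1 and differed by the substitution G385A, counted from 1 at the start of the coding sequence. Over the whole coding sequence, Atp5g3 was 66.6% and Atp5g2 68.7% identical to Atp5g1.

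The Irx3/5dHet library held 2974060 UMIs in 1800 barcodes and the WT library 4426817 UMIs in 2800 barcodes. Kept cells had 300 genes or more and no more than 20% mitochondrial UMIs. After 4 Irx3/5dHet and 13 WT called doublets were left out, 1480 Irx3/5dHet cells (median 1156.5 UMIs) and 2392 WT cells (median 1274 UMIs) were used. The doublet caller marked 0.437% of the kept cells, and doublets may therefore remain among the cells used. The libraries shared 3 barcodes, 1 of them among kept cells. Irx3 had 15 UMIs (5.26 CPM) in Irx3/5dHet cells and 30 UMIs (7.05 CPM) in WT cells, a fold of 0.746 (0.373 to 1.43). Irx5 had 6 UMIs (2.10 CPM) in Irx3/5dHet cells and 16 UMIs (3.76 CPM) in WT cells, a fold of 0.560 (0.179 to 1.51), so for both genes an equal level lay inside the counting interval. The cells fell into 20 clusters, of which 19 were named from marker genes into 11 classes and 1, led by Anxa1, Epcam, Krt18 and Cyp2f2, stayed unnamed. Clusters led by Npy and Agrp, Tac2 and Kiss1, tanycyte markers and pars tuberalis markers were present, as the labelled region would hold. Pomc was among the top genes of a cluster led by Cartpt, Gal and Oxt. Other clusters were led by Vip and Prok2 or by Foxb1, genes known from neighbouring hypothalamic nuclei. The members, mitochondrial, ribosomal protein and haemoglobin genes were left out of the genes used for clustering.

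The members made up a larger share of the RNA in neurons and mural cells than in the other classes, and the smallest share in microglia, in both libraries. Summed over all 93, they held 4.03% (4.0 to 4.06) of the UMIs of Irx3/5dHet neuron-like cells and 3.45% (3.43 to 3.48) of WT neuron-like cells. Mural-like cells, the contractile cells of vessel walls, held 3.67% (3.51 to 3.84) in Irx3/5dHet and 3.65% (3.53 to 3.79) in WT. Oligodendrocyte precursor-like cells came next, with 3.11% in Irx3/5dHet and 3.23% in WT. Tanycyte-like cells, the glia that line the ventricle floor, held 2.72% in Irx3/5dHet and 2.46% in WT. Ependymal-like, pars tuberalis-like, oligodendrocyte-like, fibroblast-like and endothelial-like cells lay between 2.0% and 2.35% in Irx3/5dHet and between 1.86% and 2.14% in WT. Microglia-like cells held 1.44% (1.33 to 1.54) in Irx3/5dHet and 1.32% (1.26 to 1.40) in WT. The WT neuron interval lay below the WT mural interval, while in the Irx3/5dHet library the neuron interval lay above the mural one, so the order of these classes differed between the libraries. The neuron values include a cluster with a low share, described below. It held 52 of 706 neuron-like cells in Irx3/5dHet (1.15%) and 144 of 820 in WT (0.663%). The order of the classes without it was not tested.

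**Figure D1:**
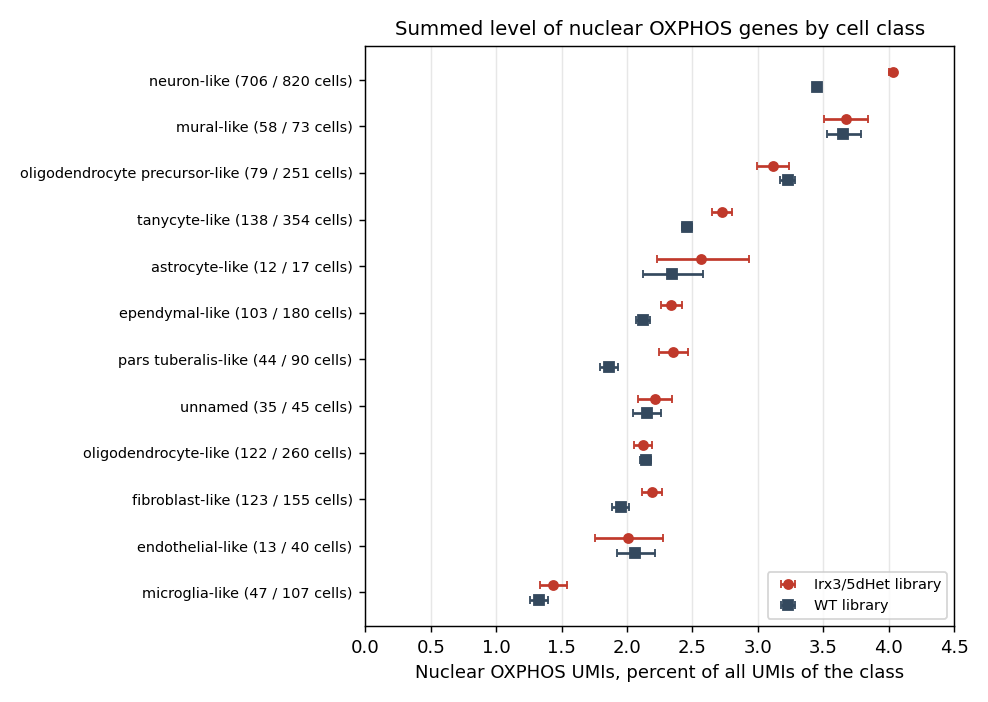
Summed UMIs of the 93 nuclear oxidative phosphorylation genes as a percent of all UMIs (x axis) in each marker-defined class (y axis), with the Irx3/5dHet library above WT and bars of 95% counting intervals. Neuron-like cells stand at 4.03% in Irx3/5dHet and 3.45% in WT, and microglia-like cells at 1.44% in Irx3/5dHet and 1.32% in WT.

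Within neuron-like cells the share varied from cell to cell. The median cell was at 3.83% in Irx3/5dHet (10th to 90th percentile 1.03 to 5.24%) and at 3.03% in WT (0.574 to 4.69%). Among the neuron clusters led by neuropeptide genes, the Cartpt, Gal and Oxt cluster held 4.20% in Irx3/5dHet and 3.84% in WT. The Npy and Agrp cluster held 4.13% in Irx3/5dHet and 3.65% in WT, and the Tac2 and Kiss1 cluster 3.98% in Irx3/5dHet and 3.58% in WT. The Vip and Prok2 cluster lay lower, at 3.65% (3.54 to 3.76) in Irx3/5dHet and 3.18% (3.11 to 3.25) in WT. A cluster led by the long non-coding RNAs Snhg11 and Meg3 stood apart at 1.15% in Irx3/5dHet and 0.663% in WT, with 8.14% mitochondrial UMIs in Irx3/5dHet and 6.97% in WT.

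The members differed widely in abundance, and 69 of them had over 1000 UMIs in all used cells together. Levels are given as CPM, a member's UMIs scaled to the total UMIs of the class in the usual counts-per-million way. Because only 3′ ends are counted, CPM is not divided by transcript length. Of the 88 members with at least 100 UMIs, 52 had the same highest class in both libraries among the 9 classes with at least 30 cells each: 29 in neurons, 16 in mural cells, 3 in oligodendrocyte precursors, 2 in ependymal cells, and 1 each in tanycytes and fibroblasts. The libraries differed in which class led more often: neurons were highest for 49 members in Irx3/5dHet and 31 in WT, and mural cells for 23 members in Irx3/5dHet and 34 in WT. Microglia-like cells were the lowest class for 52 members in Irx3/5dHet and 49 in WT. The same counts were not made for all genes, so these patterns are not shown to be particular to the members. The classes also differ in depth. Neuron-like cells had 1904873 UMIs in Irx3/5dHet and 1927069 in WT, and mural-like cells 48074 in Irx3/5dHet and 81409 in WT.

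In complex I, the entry point for electrons from NADH, the most abundant core subunits were Ndufv2 and Ndufs7, which carry iron-sulphur clusters. Ndufv2 had 404 CPM in Irx3/5dHet neurons and 348 CPM in WT neurons, against 19.8 CPM in Irx3/5dHet microglia (1 UMI) and 104 CPM in WT microglia. Ndufs7 was higher in mural cells (458 CPM in Irx3/5dHet, 491 CPM in WT) than in neurons (308 CPM in Irx3/5dHet, 315 CPM in WT). Among the other subunits, which surround the core, Ndufa6 had 889 CPM in Irx3/5dHet neurons and 753 CPM in WT neurons, and 520.0 CPM in Irx3/5dHet and 491 CPM in WT mural cells. Ndufa13 (also GRIM-19) showed the other order, with 741 CPM in Irx3/5dHet and 656 CPM in WT neurons and 957 CPM in Irx3/5dHet and 823 CPM in WT mural cells. Ndufc2, a subunit of the membrane arm, was highest in tanycytes in both libraries, at 700.3 CPM in Irx3/5dHet and 763 CPM in WT, with neurons at 619.5 CPM in Irx3/5dHet and 538 CPM in WT.

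The assembly factors, which build complex I without staying in it, were scarce and took 1.68% of the members' UMIs in Irx3/5dHet and 1.94% in WT. Ndufaf2, which holds the place of Ndufa12 during assembly, had 153 CPM in Irx3/5dHet neurons and 179.5 CPM in WT neurons. Ndufaf8 was highest in ependymal cells, at 239 CPM in Irx3/5dHet and 204 CPM in WT, with neurons at 114 CPM in Irx3/5dHet and 100.2 CPM in WT. Ndufaf5, a hydroxylase of the core subunit Ndufs7 that Ndufaf8 is known to stabilise, had another pattern and was highest in neurons, at 73.0 CPM in Irx3/5dHet and 70.1 CPM in WT.

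Complex II, succinate dehydrogenase, also belongs to the citric acid cycle and has no subunit made from mitochondrial DNA. Its subunits differed in where they were highest. Sdhb, the iron-sulphur subunit, peaked in oligodendrocyte precursors at 448 CPM in Irx3/5dHet and 437 CPM in WT, with neurons at 355 CPM in Irx3/5dHet and 328.5 CPM in WT. The membrane anchors Sdhc and Sdhd peaked in mural cells, Sdhc at 395 CPM in Irx3/5dHet (19 UMIs) and 356 CPM in WT (29 UMIs), and Sdhd at 249.6 CPM in Irx3/5dHet (12 UMIs) and 209 CPM in WT (17 UMIs). In neurons Sdhc had 116 CPM in Irx3/5dHet and 103 CPM in WT. Sdha, the flavoprotein that oxidises succinate, was highest in neurons at 179.5 CPM in Irx3/5dHet and 193 CPM in WT.

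In complex III, which hands electrons to cytochrome c, Uqcrh, the hinge subunit, had 685 CPM in Irx3/5dHet and 558 CPM in WT neurons, and 874 CPM in Irx3/5dHet and 651 CPM in WT mural cells. Uqcrq had 669 CPM in Irx3/5dHet and 510.1 CPM in WT neurons. In complex IV, cytochrome c oxidase, Cox4i1 was the most abundant member of all, with 3821 UMIs in Irx3/5dHet cells and 4861 UMIs in WT cells. It had 1527 CPM in Irx3/5dHet and 1348 CPM in WT neurons, and also 1103 CPM in Irx3/5dHet and 1324 CPM in WT oligodendrocytes. Cox8a peaked in mural cells at 2018 CPM in Irx3/5dHet and 1793 CPM in WT, against 397 CPM in Irx3/5dHet and 284 CPM in WT microglia. In complex V, Atp5b, the catalytic beta subunit, had 797 CPM in Irx3/5dHet and 731 CPM in WT neurons, and 1248 CPM in Irx3/5dHet and 1130 CPM in WT mural cells. Atp5j2, a membrane subunit, had 898 CPM in Irx3/5dHet and 732 CPM in WT neurons, with mural cells at 707 CPM in Irx3/5dHet and 725 CPM in WT.

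Some subunits come in paralogous versions, and mural-like cells carried versions that were rare elsewhere. Ndufa4l2, a paralogue of the complex IV subunit Ndufa4 known to be induced by low oxygen, had 44 UMIs (915 CPM) in Irx3/5dHet and 85 UMIs (1044 CPM) in WT mural-like cells. It made up 71.0% (58.1 to 81.8) of the Ndufa4 and Ndufa4l2 UMIs in Irx3/5dHet and 61.6% (52.9 to 69.7) in WT mural-like cells. It was found in 19 of 58 Irx3/5dHet and 40 of 73 WT mural-like cells, whose median depth was 773 UMIs in Irx3/5dHet and 1050 in WT. In the deeper neuron-like cells (median 1770 UMIs in Irx3/5dHet, 1570.5 in WT) it had 2 UMIs in Irx3/5dHet and 4 in WT. It had 0 UMIs in endothelial-like cells of either library, and endothelial markers summed to 728 CPM in Irx3/5dHet and 319 CPM in WT mural-like cells. Mural-like cells held 86.3% of all its UMIs in Irx3/5dHet and 94.4% in WT. Ndufa4l2 overlaps Shmt2 in the annotation, and the sources used here do not say whether counting used the strand.

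Cox4i2, the version of subunit IV known from lung and from oxygen-sensing cells, had 26 UMIs (541 CPM) in Irx3/5dHet and 42 UMIs (516 CPM) in WT mural-like cells. It was 32.1% (22.2 to 43.4) of the Cox4 UMIs there in Irx3/5dHet and 27.6% (20.7 to 35.5) in WT. Outside mural cells it had at most 4 UMIs in a class in Irx3/5dHet and at most 7 in WT, both in fibroblast-like cells. Cox7a1, the version known from heart and skeletal muscle, had 0 of 58 Cox7a UMIs in Irx3/5dHet mural-like cells and 0 of 109 in WT, which allows shares of up to 5.17% in Irx3/5dHet and 2.75% in WT.

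Cox6b2, known from testis, was highest in fibroblast-like and then in tanycyte-like cells. It had 25 UMIs (188 CPM) in Irx3/5dHet and 49 UMIs (265 CPM) in WT fibroblast-like cells, which was 27.2% (18.4 to 37.4) of the Cox6b UMIs in Irx3/5dHet and 39.2% (30.6 to 48.3) in WT. In tanycyte-like cells it had 30 UMIs (174 CPM) in Irx3/5dHet and 48 UMIs (81.7 CPM) in WT, or 21.0% of Cox6b UMIs in Irx3/5dHet and 13.3% in WT. In neuron-like cells it was 0.745% of Cox6b UMIs in Irx3/5dHet and 0.685% in WT. Cox6a2, the heart and muscle version of subunit VIa, had 89 UMIs in Irx3/5dHet neurons and 53 in WT neurons. Neurons held 93.7% of its UMIs in Irx3/5dHet and 67.9% in WT, against 66.8% of all UMIs in Irx3/5dHet and 45.3% in WT. It was 6.58% (5.32 to 8.03) of the Cox6a UMIs in Irx3/5dHet neurons and 3.18% (2.39 to 4.14) in WT neurons. In tanycyte-like cells it had 3 UMIs in Irx3/5dHet and 16 in WT, or 2.24% (0.464 to 6.40) of Cox6a UMIs in Irx3/5dHet and 3.96% (2.28 to 6.35) in WT, where the WT interval held the WT neuron value. In ependymal-like cells it had 0 UMIs in Irx3/5dHet and 6 in WT (5.45% of Cox6a UMIs, 2.03 to 11.5). Cox6a2 overlaps Itgad in the annotation. Cox7b2 had 2 UMIs in Irx3/5dHet and 11 in WT, and Cox8b and Cox8c had 1 UMI each in WT. The widespread versions were high in neurons, Ndufa4 at 1232 CPM in Irx3/5dHet and 999.96 CPM in WT, and Cox6b1 at 979 CPM in Irx3/5dHet and 828 CPM in WT. Cox7a2 had 930.2 CPM in Irx3/5dHet and 769.6 CPM in WT neurons, its relative Cox7a2l, known from supercomplex assembly, 418 CPM in Irx3/5dHet and 357.5 CPM in WT, and Cox7b 833 CPM in Irx3/5dHet and 725 CPM in WT.

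**Figure D2:**
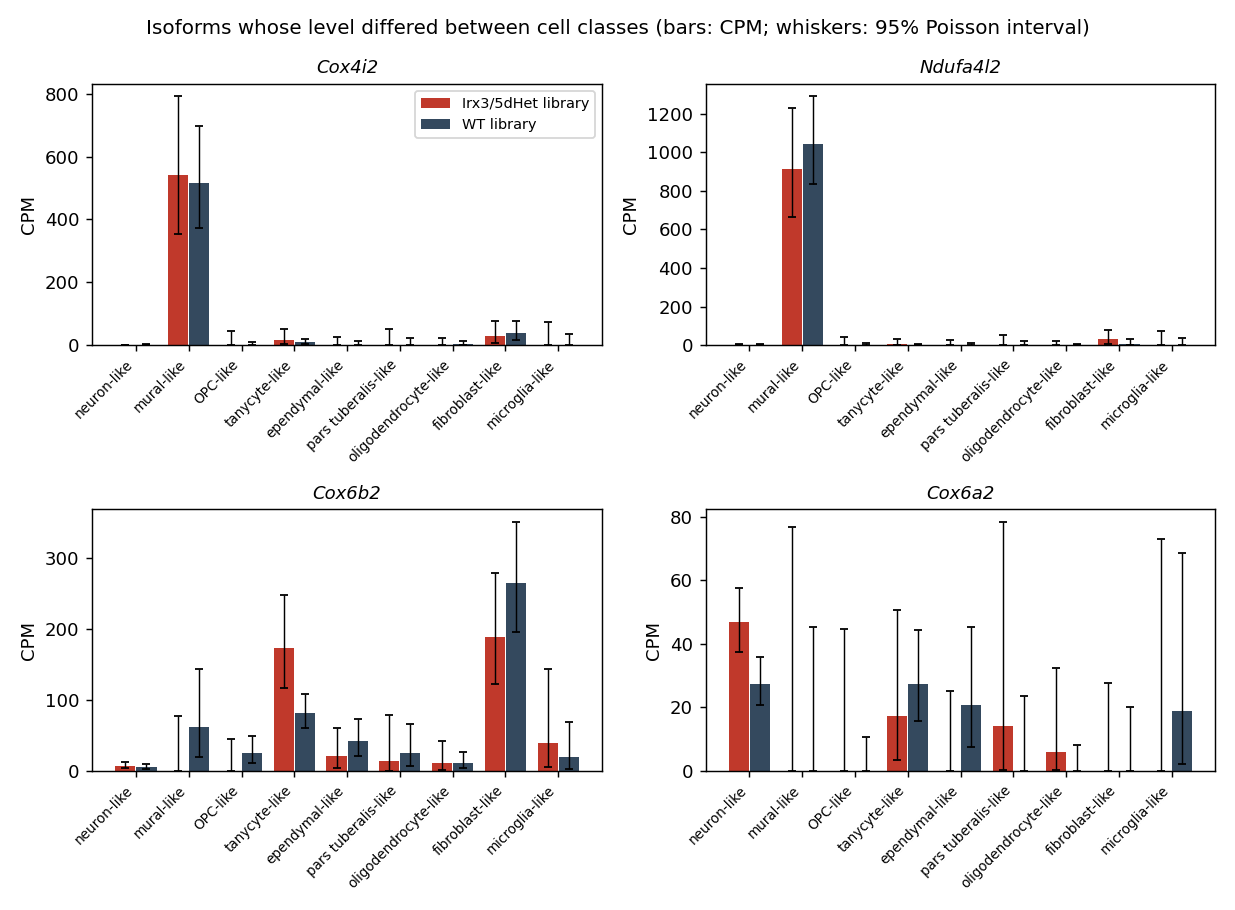
CPM of Cox4i2, Ndufa4l2, Cox6b2 and Cox6a2 (y axis) by cell class (x axis), Irx3/5dHet left of WT, with 95% counting intervals. Shares of family UMIs are given here for reading beside the bars. In mural-like cells Ndufa4l2 had 71.0% of its family's UMIs in Irx3/5dHet and 61.6% in WT. Cox4i2 had 32.1% in Irx3/5dHet and 27.6% in WT there. In fibroblast-like cells Cox6b2 had 27.2% in Irx3/5dHet and 39.2% in WT.

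Between the genotypes, the members were higher in the Irx3/5dHet library in neurons and in several other classes. The summed share was 1.17-fold (1.16 to 1.18) higher in Irx3/5dHet neuron-like cells, and 1.03-fold (1.01 to 1.04) higher in all other cells pooled (2.43% in Irx3/5dHet, 2.36% in WT). The pooled value joins classes in unequal parts. Oligodendrocyte precursor-like cells, for example, held 2.90% of used UMIs in Irx3/5dHet and 8.22% in WT. Among all 12 classes, counting the unnamed cluster, the fold was over 1 in 9 and its interval lay above 1 in 5: neuron-like, tanycyte-like (1.11, 1.07 to 1.15), ependymal-like (1.10, 1.06 to 1.15), pars tuberalis-like (1.27, 1.19 to 1.34) and fibroblast-like (1.12, 1.07 to 1.18). No class had an interval below 1. Mural-like cells had a fold of 1.0 (0.947 to 1.07), oligodendrocyte-like cells 0.989 (0.952 to 1.03) and precursors 0.965 (0.924 to 1.01). All 7 neuron clusters had folds above 1 with intervals above 1. The folds were 1.10 to 1.15 in 6 of them and 1.73 in the Snhg11 and Meg3 cluster, which held 52 of 706 Irx3/5dHet and 144 of 820 WT neuron-like cells. Without that cluster the neuron fold was 1.13.

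Other quantities also differed between the 2 libraries in neuron-like cells. Rows that the annotation calls pseudogenes took 6.79% of UMIs in Irx3/5dHet and 9.87% in WT, and coding ribosomal protein genes 4.02% in Irx3/5dHet and 3.37% in WT. The pseudogene share was lower in Irx3/5dHet in every class. In all other cells together it was 5.77% in Irx3/5dHet and 8.69% in WT. Coding ribosomal protein genes took 3.62% in Irx3/5dHet and 3.06% in WT there. The median neuron-like cell had 1770 UMIs in Irx3/5dHet and 1570.5 in WT. Marker genes of 14 other cell types were also summed in neuron-like cells. Of these lists, 13 were lower in Irx3/5dHet neurons, by folds of 0.364 to 0.913 (summed 1032 CPM in Irx3/5dHet, 1418 CPM in WT). The T cell list was higher, at 32.0 CPM in Irx3/5dHet (61 UMIs, 1 of 4 markers at 0) and 6.75 CPM in WT (13 UMIs, 3 of 4 markers at 0). The part of each of these in the members' ratios was not tested.

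Member by member, 89 had at least 10 UMIs in neuron-like cells and 4 did not (Cox4i2, Cox8b, Cox8c and Ndufa4l2). Ratios are log2 of Irx3/5dHet over WT CPM, with 0.5 added to each sum. The ratio was over 0 for 76 of the 89 and under 0 for 13, with a median of 0.20. Among all genes past the same minimum, 44.4% had a ratio over 0 and the median was -0.07. Abundant coding genes are the closer background. Of those with at least 500 UMIs, 67.8% had a ratio over 0, with a median of 0.10, against 62 of the 70 members at that depth, with a median of 0.21. The counting interval lay above 0 for 51 of the 89 members (8.92% of all genes) and for 49 of the 70 abundant ones (33.9% of abundant coding genes). It lay below 0 for 3 members (15.1% of all genes), which were Cox6a1, Ndufaf2 and Cox5b. A ratio of at least 0.32 was reached by 15 members (18.6% of all genes), and a ratio of -0.32 or lower by 2, Cox6a1 and Cox7b2 (32.9% of all genes). With sequence-matched pseudogene copies added, as described below, the interval lay above 0 for 40 members and below 0 for 5 (Atp5g2, Cox5b, Cox6a1, Cox7c and Ndufaf2). The median counting interval reached 0.14 to either side of the ratio.

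**Figure D3:**
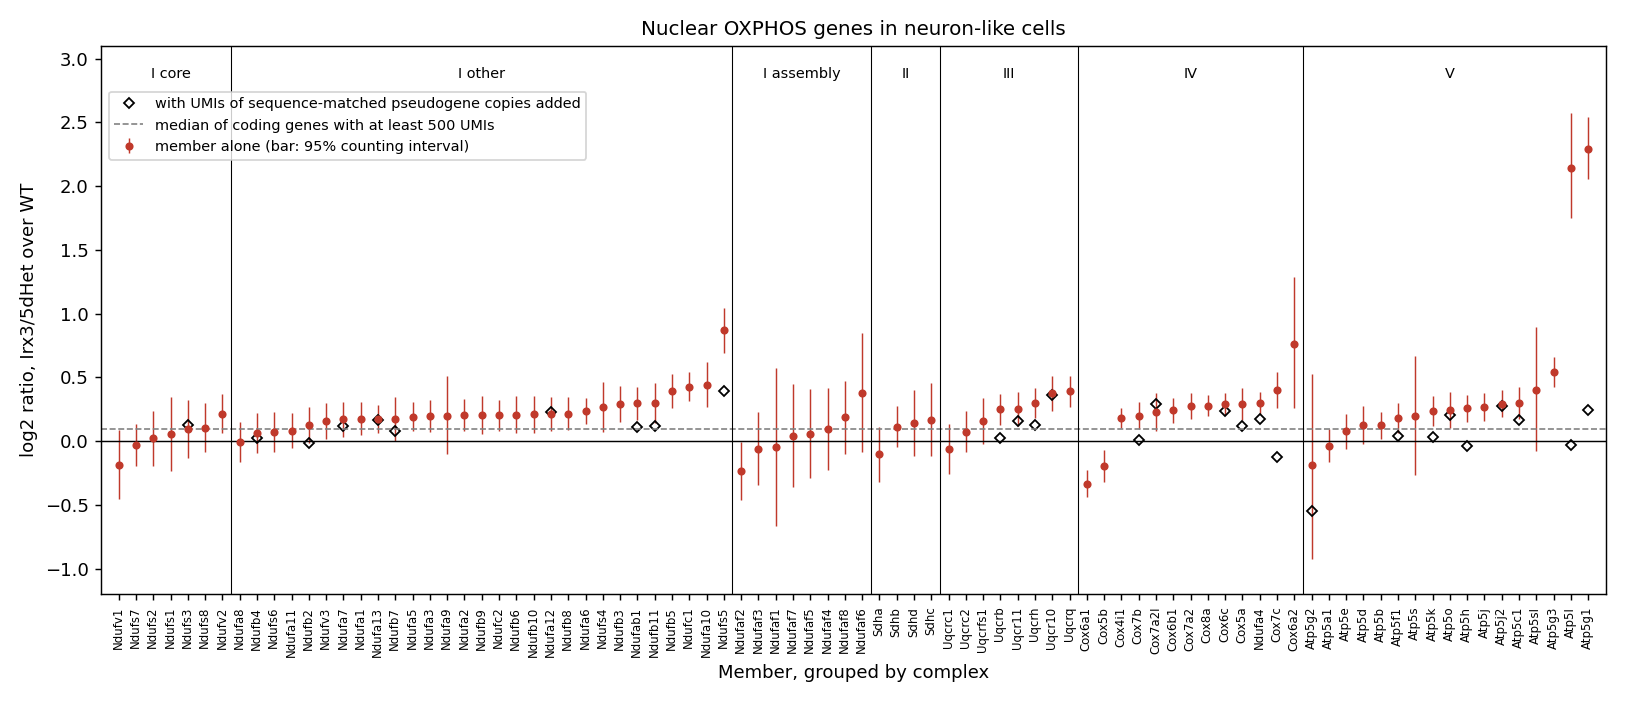
Log2 ratio of Irx3/5dHet over WT CPM in neuron-like cells (y axis) for the 86 members with at least 50 UMIs, grouped by complex, with 95% counting intervals. Most points lie between 0 and 0.4, Atp5g1 (2.29) and Atp5l (2.14) lie far above the rest, and Cox6a1 (-0.33) is the lowest.

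The complexes had different summed folds in neurons. ATP synthase (complex V) was at 1.24 (1.21 to 1.26), with 15 of 17 members over 0. Complex III was at 1.19 (1.15 to 1.23) with 7 of 8, the other subunits of complex I at 1.17 (1.15 to 1.19) with 28 of 29, and complex IV at 1.14 (1.12 to 1.17) with 13 of 16 members tested. The core subunits of complex I (1.05, 0.994 to 1.10, 5 of 7), complex II (1.05, 0.978 to 1.13, 3 of 4) and the assembly factors (1.0, 0.928 to 1.09, 5 of 8) had intervals that held 1. The order rests on a few members with pseudogene copies. Without Atp5g1 and Atp5l complex V was at 1.17. With copies added the folds were 1.10 for complex V, 1.12 for complex III, 1.15 for the other subunits of complex I and 1.09 for complex IV. By the median ratio of members, complex IV was highest both without copies (0.28) and with them (0.21). The background for these counts is the same 44.4% of all genes and 67.8% of abundant coding genes.

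Among members with at least 50 UMIs in neurons, the highest ratios were those of Atp5g1, Atp5l, Ndufs5, Cox6a2 and Atp5g3. Atp5g1 had 829 UMIs (435 CPM) in Irx3/5dHet neurons and 171 UMIs (88.7 CPM) in WT neurons, a log2 ratio of 2.29 (2.05 to 2.54). Atp5l, subunit g of ATP synthase, had 277 UMIs (145 CPM) in Irx3/5dHet and 63 UMIs (32.7 CPM) in WT, a ratio of 2.14 (1.75 to 2.57). These 2 members had the ratios furthest from 0 among those with at least 50 UMIs. Ndufs5, a complex I subunit on the intermembrane side, had 744 UMIs (391 CPM) in Irx3/5dHet and 412 UMIs (214 CPM) in WT, a ratio of 0.87 (0.69 to 1.05). Cox6a2 had 89 UMIs (46.7 CPM) in Irx3/5dHet and 53 UMIs (27.5 CPM) in WT, a ratio of 0.76 (0.26 to 1.28). Atp5g3 had 1486 UMIs (780.1 CPM) in Irx3/5dHet and 1032 UMIs (536 CPM) in WT, a ratio of 0.54 (0.43 to 0.66). Cox7a1, with 11 UMIs in Irx3/5dHet and 4 in WT, was at 1.37 with an interval that held 0 (-0.28 to 3.58). Of the first 5, Cox6a2 and Atp5g3 had no sequence-matched pseudogene copy.

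The lowest ratios with at least 50 UMIs were those of Cox6a1, Ndufaf2, Cox5b, Atp5g2 and Ndufv1. Cox6a1, the widespread version of subunit VIa, had 1264 UMIs (664 CPM) in Irx3/5dHet neurons and 1612 UMIs (837 CPM) in WT neurons, a ratio of -0.33 (-0.44 to -0.23). Its paralogue Cox6a2 differed in the other direction, but at 6.58% of the pair's UMIs or less it held a small part of the sum. Cox5b, the zinc-binding subunit, had 1004 UMIs (527 CPM) in Irx3/5dHet and 1163 UMIs (604 CPM) in WT, a ratio of -0.20 (-0.32 to -0.07). Ndufaf2 had 291 UMIs in Irx3/5dHet and 346 in WT, a ratio of -0.23 that became 0.11 when cells were averaged in place of summed. Atp5g2 (32 UMIs in Irx3/5dHet, 37 in WT, ratio -0.19) and the core subunit Ndufv1 (213 UMIs in Irx3/5dHet, 245 in WT, ratio -0.18) had intervals that held 0, and with copies added Atp5g2 was at -0.55 (-0.98 to -0.13). Cox7b2, with 2 UMIs in Irx3/5dHet and 8 in WT, was lower at -1.75, and its interval also held 0.

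Many members have processed pseudogenes in the mouse genome, copies made by reverse transcription of the mRNA, and a read from the member can match such a copy as well. Rows of the tables were matched to members by sequence in GENCODE M21, at 90% identity or more over at least 100 bases, which found 67 copies of 29 members. The division of UMIs between members and copies differed between the libraries. Over these 29 members in all used cells, the member rather than its copies held 82.8% (82.5 to 83.1) of the UMIs in Irx3/5dHet and 73.7% (73.3 to 74.0) in WT. The member's share was higher in Irx3/5dHet for 26 of the 29, with intervals that did not overlap for 21, and lower without overlap for 1. Pseudogene rows of all genes together took 6.45% of UMIs in Irx3/5dHet and 9.22% in WT over all used cells. The same count was not made for other genes with copies, so the difference is not shown to be particular to these members. How reads that match several places were counted is not given in the sources at hand.

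Atp5g1 was the clearest case. In neuron-like cells it held 57.7% (55.1 to 60.3) of the UMIs of itself and its 5 copies in Irx3/5dHet and 13.9% (12 to 16) in WT. Outside neurons the shares were 57.6% (51.1 to 63.9) in Irx3/5dHet and 16.1% (13.2 to 19.4) in WT, close to the neuron values. Over all used cells its copy Gm10039, shown above, had 575 UMIs (202 CPM) in Irx3/5dHet and 1428 UMIs (336 CPM) in WT. With copies added, the Atp5g1 sum in neurons was 754 CPM in Irx3/5dHet and 637 CPM in WT, and the ratio of 2.29 became 0.24 (0.13 to 0.36). Without copies, Atp5g1 made up 35.3% of the UMIs of the 3 Atp5g genes in Irx3/5dHet neurons and 13.8% in WT neurons. Atp5g3 made up 63.3% in Irx3/5dHet and 83.2% in WT. These shares rest on the same Atp5g1 counts and are not a second observation of the division. With copies added, Atp5g1 had 754 CPM in Irx3/5dHet and 637 CPM in WT, beside 780.1 CPM in Irx3/5dHet and 536 CPM in WT for Atp5g3.

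Atp5l has 13 copies, among them Atp5l-ps2 (88 UMIs in Irx3/5dHet and 385 in WT over all used cells), which matched 297 of 314 aligned bases. With copies its sum in neurons was 301 CPM in Irx3/5dHet and 308 CPM in WT, and the ratio of 2.14 became -0.033 (-0.20 to 0.14). Ndufs5 has the copy BC002163, which differed from it at 4 of 321 bases. Over all used cells the copy had 318 UMIs in Irx3/5dHet and 624 in WT, and in neurons 242 in Irx3/5dHet and 349 in WT. With the copy, the Ndufs5 sum in neurons was 518 CPM in Irx3/5dHet and 395 CPM in WT, and the ratio became 0.39 (0.25 to 0.53). Cox7c, a membrane subunit of complex IV, was named here after its values were seen, because its copy Gm12338 matched all 192 coding bases. Its ratio of 0.40 (930 UMIs in Irx3/5dHet, 714 in WT) became -0.12 (-0.23 to -0.02) with copies added. The interval had been above 0 without copies and the ratio under 0 with them for 3 members, Atp5l, Cox7c and Atp5h, the d subunit of ATP synthase (0.26 without, -0.042 with), which was named for this after its values were seen. Atp5l also has an overlapping antisense gene, Gm30934, in the annotation.

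**Figure D4:**
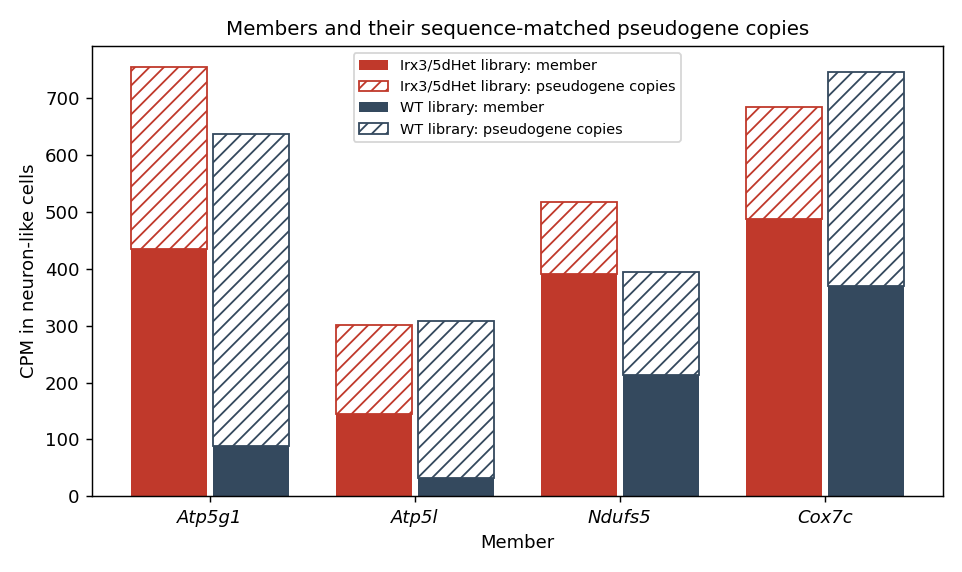
CPM in neuron-like cells of Atp5g1, Atp5l, Ndufs5 and Cox7c (member) and of their sequence-matched pseudogene copies stacked on it, Irx3/5dHet left of WT. The sums are 754 CPM in Irx3/5dHet and 637 CPM in WT for Atp5g1, and 684 CPM in Irx3/5dHet and 746 CPM in WT for Cox7c, while the member's part is larger in Irx3/5dHet for all 4.

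For the 29 members with copies the neuron median was 0.25 with 28 over 0, and it was 0.12 with 24 over 0 once copies were added. For the 60 members tested without a copy the median was 0.18 with 48 over 0. With copies added to those that have them, 72 of the 89 were over 0, with a median of 0.16, and the summed neuron fold was 1.11. By complex, adding copies took the median of complex V to 0.13 (0.24 without), that of complex III to 0.14 (0.25 without) and that of complex IV to 0.21 (0.28 without). The core subunits and assembly factors of complex I and complex II kept medians of 0.05, 0.05 and 0.13.

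In the other classes the counts were smaller and the intervals wider, with a median half-width of 0.49 in tanycyte-like, 0.61 in ependymal-like, 0.55 in oligodendrocyte-like and 0.73 in fibroblast-like cells. In tanycyte-like cells 59 of 87 members had a ratio over 0 (51.2% of all genes, 68.2% of coding genes with at least 500 UMIs), with a median of 0.12. In ependymal-like cells it was 57 of 82 (50.2% of all genes, 62.1% of abundant coding genes), with a median of 0.14. In fibroblast-like cells it was 54 of 80 (50.7% and 54.5% by the same backgrounds), with a median of 0.15. In oligodendrocyte-like cells it was 45 of 83 (47.8% and 57.4%), with a median of 0.01. The backgrounds of abundant coding genes rest on 129 genes in tanycyte-like, 58 in ependymal-like, 44 in fibroblast-like and 101 in oligodendrocyte-like cells. Nearly all members had fewer than 500 UMIs in these classes, so that background is of deeper genes than the members: 5 members reached 500 UMIs in tanycyte-like cells (4 over 0), 3 in oligodendrocyte-like cells (0 over 0) and 0 in the other classes. With copies added, 54 of 87 members were over 0 in tanycyte-like, 49 of 82 in ependymal-like, 39 of 83 in oligodendrocyte-like and 49 of 80 in fibroblast-like cells. Over all cells together 81 of 91 members were over 0 (43.4% of all genes, 63.5% of abundant coding genes), and without neuron-like cells 49 of 90 were (47.1% and 57.9%). Both pools join classes in parts that differ between the libraries. Neuron-like cells held 66.8% of used UMIs in Irx3/5dHet and 45.3% in WT.

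Among single members, Atp5g1 was the only one of 78 tested in all 5 classes whose interval lay above 0 in each of them, and with copies added the interval lay above 0 in all 5 for 0 members. Its ratios were 1.88 in tanycyte-like cells (26 UMIs in Irx3/5dHet, 24 in WT), 2.13 in ependymal-like (25 in Irx3/5dHet, 11 in WT), 1.95 in oligodendrocyte-like (24 in Irx3/5dHet, 16 in WT) and 1.64 in fibroblast-like cells (23 in Irx3/5dHet, 10 in WT). With copies added these became 0.08 (-0.40 to 0.53) in tanycyte-like, 0.28 (-0.31 to 0.84) in ependymal-like, 0.04 (-0.57 to 0.60) in oligodendrocyte-like and 0.38 (-0.26 to 1.02) in fibroblast-like cells, so all 4 intervals held 0. Ratios were over 0 in all 5 classes for 16 of the 78 members (8.2% of all genes and 8.64% of coding genes with at least 10 UMIs in each class), and Cox5b alone was under 0 in all 5 (10.4% of all genes, 3.89% of coding genes). With copies added these were 11 members over 0, and Cox5b and Cox7c under 0. In tanycyte-like cells Cox6b2 was 1.10 (0.38 to 1.77), Cox5b -0.66 (-1.26 to -0.13, 33 UMIs in Irx3/5dHet and 179 in WT) and Sdha -0.81 (13 UMIs in Irx3/5dHet, 80 in WT).

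The members named next had 50 UMIs or more in their class. In ependymal-like cells the highest ratios were those of Ndufa5, a subunit of the matrix arm of complex I, and Atp5g3 (0.70, 0.06 to 1.32). Ndufa5 was at 0.73 (31 UMIs in Irx3/5dHet and 37 in WT), with an interval that held 0 (-0.01 to 1.45). The lowest there were Atp5d, the delta subunit of ATP synthase (-0.49), and Ndufb9 of complex I (-0.46), with intervals that held 0. In oligodendrocyte-like cells Ndufs4, known for causing Leigh syndrome when lost, was at 0.99 (0.26 to 1.69, 31 UMIs in Irx3/5dHet and 41 in WT) and Ndufb11 of the membrane arm of complex I at 0.54 (0.08 to 0.99), which became 0.34 (-0.07 to 0.74) with its copy added. Ndufs8, an iron-sulphur core subunit, was at -0.70 (-1.47 to -0.05) and the membrane-arm subunit Ndufb7 at -0.67 (-1.42 to -0.02). In fibroblast-like cells the epsilon subunit Atp5e was at 0.79 (0.27 to 1.31, 72 UMIs in Irx3/5dHet and 58 in WT) and the complex I subunit Ndufa12 at 0.78 (0.10 to 1.48). Uqcrb of complex III (-0.55) and Ndufs6 of complex I (-0.54) were lowest there with intervals that held 0, and with copies added Uqcrb was at -0.92 (-1.49 to -0.40). Members with fewer UMIs and an interval that excluded 0 are named here after their values were seen, except Atp5g1, given above. In oligodendrocyte-like cells those below 0 were the assembly factor Ndufaf3 (2 UMIs in Irx3/5dHet, 28 in WT) and Atp5s (0 UMIs in Irx3/5dHet, 14 in WT). Above 0 there were Ndufaf4 (2.08, 0.52 to 3.86, 10 UMIs in Irx3/5dHet and 6 in WT) and Atp5l (1.79, 0.76 to 2.87). The Rieske subunit Uqcrfs1 of complex III was at -1.44 (-3.10 to -0.19, 6 UMIs in Irx3/5dHet and 24 in WT) in fibroblast-like cells, the only one there with an interval below 0 before copies were added. Above 0 there were Sdhc (1.52, 0.28 to 2.99, 17 UMIs in Irx3/5dHet and 8 in WT) and Atp5l (2.62, 0.98 to 5.23). Atp5l was also above 0 in tanycyte-like cells (1.85, 0.78 to 2.93). With copies added, its interval held 0 in each of these classes.

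Lists of related genes were read in neurons in the same way. The subunits made from mitochondrial DNA went both ways: of the 13, 10 stood in the tables and 7 were tested, 3 over 0 and 4 under 0, with a median of -0.08. They held 1.39% of UMIs in Irx3/5dHet neurons and 1.36% in WT neurons. Among them mt-Cytb of complex III had 4439 CPM in Irx3/5dHet and 4801 CPM in WT (ratio -0.11), and mt-Nd1 of complex I had 3413 CPM in Irx3/5dHet and 3599 CPM in WT (ratio -0.08). Other nuclear parts of the chain were over 0 in 4 of 5, with a median of 0.26. The ATP synthase inhibitor Atpif1 had 1437 CPM in Irx3/5dHet and 1203 CPM in WT (ratio 0.26), and Usmg5, an ATP synthase membrane subunit, 825 CPM in Irx3/5dHet and 621 CPM in WT (ratio 0.41).

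Assembly factors that the name rule leaves out were over 0 in 23 of 39, with a median of 0.11, among them the copper chaperone Cox17 (0.04) and the complex III factor Uqcc2 (0.29). Pyruvate dehydrogenase and citric acid cycle genes were over 0 in 12 of 17, with a median of 0.07 (Mdh2 0.07, Suclg1 0.18). Regulators of mitochondrial transcription were over 0 in 6 of 12, with a median of -0.03 (Tfam, which packages mitochondrial DNA, -0.11, and Yy1 -0.07). Mitochondrial carriers and channels were over 0 in 5 of 8, with a median of 0.01 (the adenine nucleotide carrier Slc25a4 0.17, the phosphate carrier Slc25a3 -0.03). Glycolysis genes were over 0 in 10 of 16, with a median of 0.11 (Aldoa -0.06, Tpi1 0.20). Beside these counts stand the 44.4% of all genes and 49.1% of coding genes with at least 10 UMIs that had a ratio over 0, the minimum used for the lists, and the 67.8% of coding genes with at least 500 UMIs.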

How the data were processed

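Single-cell RNA of 1 pooled Irx3/5dHet and 1 pooled WT library was analysed. The authors deposited raw UMI counts per gene and cell barcode, as the values show. Per the submitters' processing notes, the build was mm10 and the tools included STAR 2.6.0b, Seurat 3, Picard and bcl2fastq. The authors also deposited a merged table of natural log values, from which only the choice of cells was taken, as an alternative. The sources used here give neither the annotation nor the strand and multi-mapping settings.

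Doublets were called per library with Scrublet (scanpy 1.11.5, expected rate 5%). Counts were scaled and log transformed, and 30 principal components of 2000 variable genes and Leiden clustering (leidenalg 0.10.2, 20 neighbours, resolution 1) gave 20 clusters. Naming a class required 3 or more markers, each in 10% of the cluster's cells and over 2 times the median cluster. The log2 marker score had to average 1 or more and reach 0.6 times that of the best cluster. These limits were set with the data in view. Sums of UMIs per library and class were made (Python 3.11.15, numpy 2.4.6, pandas 2.3.3) and expressed as CPM or percent. Intervals are exact Clopper-Pearson, Poisson or conditional binomial (scipy 1.17.1), at 95%. Folds were scaled to the total UMIs of the class. Ratios needed 10 UMIs over both libraries, and a count of 0 allows 3. Copies were matched with BLAST+ 2.17.0 and aligned with biopython 1.88. Scripts for values were tested on simulated counts.

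The members and all gene lists were chosen with earlier results of these data known. The text names the 2 most abundant members of each complex, all members of the isoform families, the 5 highest and 5 lowest neuron ratios among members with at least 50 UMIs, the highest 2 and lowest 2 in each other class with 100 cells per library, the 5 members with the largest ratio of highest to median class, and the 2 most abundant genes of each list. Of the members, 92 of 93 matched GENCODE M21 by symbol. Alternatives varied the cell filters, doublets, classes, scaling, copies, minimum UMIs and the number added.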

Additional observations from a re-analysis of the deposited data

Results flagged for a closer look

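Members whose ratio had a counting interval above 0 in a cell class and below 0 in another are listed first; the difference between classes was not tested. The log2 ratio of Irx3/5dHet over WT for Cox4i1 was 0.18 in neuron-like and -0.26 in oligodendrocyte-like cells (189 UMIs in Irx3/5dHet, 592 in WT). For Cox6a1 it was 0.59 in ependymal-like cells (79 UMIs in Irx3/5dHet, 104 in WT) and -0.33 in neuron-like cells. For Ndufa5, a matrix-arm subunit of complex I, it was 0.19 in neuron-like and -0.57 in oligodendrocyte-like cells (35 UMIs in Irx3/5dHet, 137 in WT). For Ndufb7, a membrane-arm subunit, it was 0.18 in neuron-like, 0.46 in tanycyte-like and -0.67 in oligodendrocyte-like cells (23 UMIs in Irx3/5dHet, 97 in WT). With its pseudogene copy added, Ndufb7 was at 0.08 (-0.09 to 0.25) in neuron-like and 0.39 (-0.07 to 0.82) in tanycyte-like cells, and no interval of it lay above 0. Cox4i1, Cox6a1 and Ndufa5 have no sequence-matched copy. With copies added, Cox6c, Ndufa12 and Uqcrh also had intervals above 0 in a class and below 0 in another.

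Barcodes that the cell filter left out also carried member UMIs, at 1.67% (1.60 to 1.75) of the UMIs of 316 Irx3/5dHet barcodes and 1.36% (1.30 to 1.42) of those of 395 WT barcodes.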

How the results depend on the processing

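No paired analysis was possible because each genotype had 1 library, and for the same reason no replicate could be left out. The summed neuron fold of 1.17 stayed over 1 under every setting tried. It was 1.15 with at least 500 genes per cell, 1.15 with cells classed by their own marker score, 1.13 when scaled to UMIs without mitochondrial, ribosomal protein and pseudogene rows, and 1.28 as a mean over cells. Alternatives chosen after seeing the data gave 1.13 without members that have sequence-matched copies, 1.11 with copies added and 1.13 without the Snhg11 and Meg3 cluster. Members with a neuron ratio over 0 numbered 48 to 78 under the settings; the 48 were of the members without copies, so fewer were tested. The tanycyte fold of 1.11 was 1.16 at clustering resolution 2, 1.07 rescaled and 1.06 with copies added. The oligodendrocyte fold of 0.989, whose interval held 1, was 0.942 with copies added and lay between 0.942 and 1.01 under the settings, and the median ratio there (0.01) lay between -0.05 and 0.03. The fibroblast fold of 1.12 was 1.07 by own marker score, 1.06 rescaled and 1.06 with copies added. Of members named with an interval that excluded 0 in neurons, those that reversed were Atp5l (-0.033), Cox7c (-0.12) and Atp5h (-0.042) with sequence-matched copies added, and Ndufaf2 (0.11) as a mean over cells. In mural-like cells the Cox4i2 share of both libraries pooled stayed between 27.5% and 29.2%, and the Ndufa4l2 share between 67.7% and 73.8% in Irx3/5dHet and between 56.1% and 68.2% in WT. Depth limits single members outside neurons, where most ratios had intervals that held 0, and the cause of each shift was not tested.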

Other observations

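Among smaller cell groups, the oligodendrocyte precursor cluster led by Gpr17, a receptor of precursors about to mature, was the only one of 20 clusters whose summed fold had an interval below 1. It held 3.07% in Irx3/5dHet and 3.47% in WT, a fold of 0.885 (0.793 to 0.987), from 14 Irx3/5dHet and 20 WT cells. The fold was over 1 in 16 clusters, with the interval above 1 in 12. Pars tuberalis-like cells, endocrine cells next to the median eminence, had the highest level of Atp5d, at 647 CPM in Irx3/5dHet (46 UMIs) and 589 CPM in WT (92 UMIs). Atp5l had 2 UMIs in Irx3/5dHet and 13 UMIs in WT microglia-like cells (39.7 CPM in Irx3/5dHet, 123 CPM in WT), the opposite order to its neuron values without copies. These counts are small and have no interval here. With pseudogene copies added, the neuron ratio of Atp5l was -0.033 (-0.20 to 0.14). The mitochondrially encoded subunits tested were over 0 in 7 of 7 in tanycyte-like (median 0.36), oligodendrocyte-like (0.19) and fibroblast-like cells (0.30), and in 3 of 7 in ependymal-like cells (-0.19). Of all genes, 51.2% were over 0 in tanycyte-like, 47.8% in oligodendrocyte-like, 50.7% in fibroblast-like and 50.2% in ependymal-like cells. Of coding genes with at least 500 UMIs, 68.2% were over 0 in tanycyte-like, 57.4% in oligodendrocyte-like, 54.5% in fibroblast-like and 62.1% in ependymal-like cells.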
